A study of Mus musculus with 9 samples.

Results

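A set of 10 mouse genes for surface molecules of activated B cells, namely Cd83, Cd86, Cd80, Cd69, Cd44, Cd40, Fas, Icosl, Fcer2a and Slamf1, was followed through an RNA immunoprecipitation sequencing (RIP-seq) experiment. The genes were chosen by name, with earlier results of these data known, and each was found in the count table through its NCBI Gene number. They are 10 of 27179 genes in the table and 10 of the 13129 that had enough counts to be tested. The cells were CD43- B cells from the spleen of wild-type mice, cultured for 72 h with CD40L (5 ug/mL), an anti-IgM antibody (10 ug/mL) and IL-4 (20 ng/mL). The study's methods name an anti-CD40 antibody in place of CD40L. The labels give no age, and the study's methods describe its mice in general as adult, age-matched and of both sexes. RNA was precipitated from the lysate by an antibody to the phosphorylated form of UPF1 (p-UPF1) or, as a control, by normal rabbit IgG, and the third kind of library was made from lysate that was not precipitated (input). There were 3 input, 3 IgG and 3 p-UPF1 libraries, and all 9 shared the genotype, the stimulation and its duration, so no unstimulated cells enter any comparison. The question put to these genes was whether their mRNAs were more abundant in the p-UPF1 precipitate than in both backgrounds, relative to the other RNAs of each library.

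The helicase UPF1 takes part in several mRNA decay pathways, and the kinase SMG1 phosphorylates it during nonsense-mediated mRNA decay (NMD). NMD is best known for removing mRNAs whose reading frame ends too early, which in mammals is often recognised by an exon junction lying well downstream of the stop codon. An activated B cell changes its surface. It displays ligands of the B7 family (CD80, CD86 and ICOS ligand) to T cells, receives CD40 and Fas signals through receptors of the tumor necrosis factor (TNF) receptor superfamily, and acquires CD69, CD83 and other activation proteins. CD83 is a member of the immunoglobulin superfamily that keeps MHC class II and CD86 at the surface by opposing the ubiquitin ligase MARCH1.

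Total counts ran from 17372510 to 24945286 per library. Levels are given as TMM-scaled CPM, a gene's share of its library's counts on a fixed common scale, for libraries A, B and C of a group in that order. By the study's methods, a part of the lysate was kept as input and the rest went to either antibody, but no source used here links the letters to single lysates, and libraries were not paired in the tests. To check the labelled cell type, defining markers were examined. The B cell markers Cd79b, Ms4a1 and Cd79a were at 1229 ± 1.51, 725 ± 12.7 and 269 ± 5.08 CPM in input libraries, and the B cell transcription factor genes Pax5 and Ebf1 at 58.0 ± 1.67 and 49.6 ± 1.201 (SD, n = 3). T cell, neutrophil, NK cell and erythroid marker lists summed to at most 1.78 CPM in every library. Of the 5 macrophage and monocyte markers only Adgre1 passed the count filter, at 131 ± 6.27 CPM in input libraries, 89.3 ± 3.16 after IgG and 57.8 ± 1.14 after p-UPF1 precipitation (SD, n = 3), while Csf1r, Lyz2, Cd14 and Itgam stayed under 0.3 CPM on average in each group. The 5 dendritic cell markers summed to 40.4 to 41.4 CPM in input libraries, 44.8 to 52.6 after IgG and 171 to 173 after p-UPF1 precipitation, nearly all of it Zbtb46, whereas Flt3 and Itgax lay under 3 CPM and Xcr1 and Siglech under 0.5 CPM on average in each group. The 4 plasma cell markers, mostly Xbp1, summed to 270.1 to 278 CPM in input. Dendritic cells also express Cd83, Cd80 and Cd86. In such bulk material, fewer cells of a type and less RNA per cell cannot be told apart, and the part of other cells in the levels below was not tested.

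Most of the 10 mRNAs were enriched with p-UPF1, led by Cd83. Relative to IgG, 8 rose and 2 fell, and relative to input 7 rose, 2 fell and Cd44 did not pass the test (edgeR's quasi-likelihood test, Benjamini-Hochberg adjusted P under 0.05 at any fold). Among all genes tested, 40.4% were higher and 42.2% lower in p-UPF1 than in IgG libraries, and 40.8% were higher and 42.6% lower than in input. The study's methods ask for 1 log2 unit or more over IgG, which 7 of the 10 genes reached against 22.2% of all genes. They also ask for 2 log2 units or more over input, which 4 reached against 6.31%. The same 4, Cd83, Slamf1, Cd80 and Icosl, met both criteria and so counted as p-UPF1-bound, compared with 6.25% of all genes tested. In the opposite direction, Cd69 alone was at least 1 log2 unit lower than in IgG, where 21.9% of all genes were, and none was at least 1 unit lower than in input, where 24.5% of all genes were. The median log2 fold change of the 10 was 1.73 over IgG and 1.38 over input, and over all genes tested it was -0.03 in both. Both comparisons use the same p-UPF1 libraries. Since the genes were chosen with earlier results of these data known, their excess over all genes is a description and no independent evidence.

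**Figure D1:**
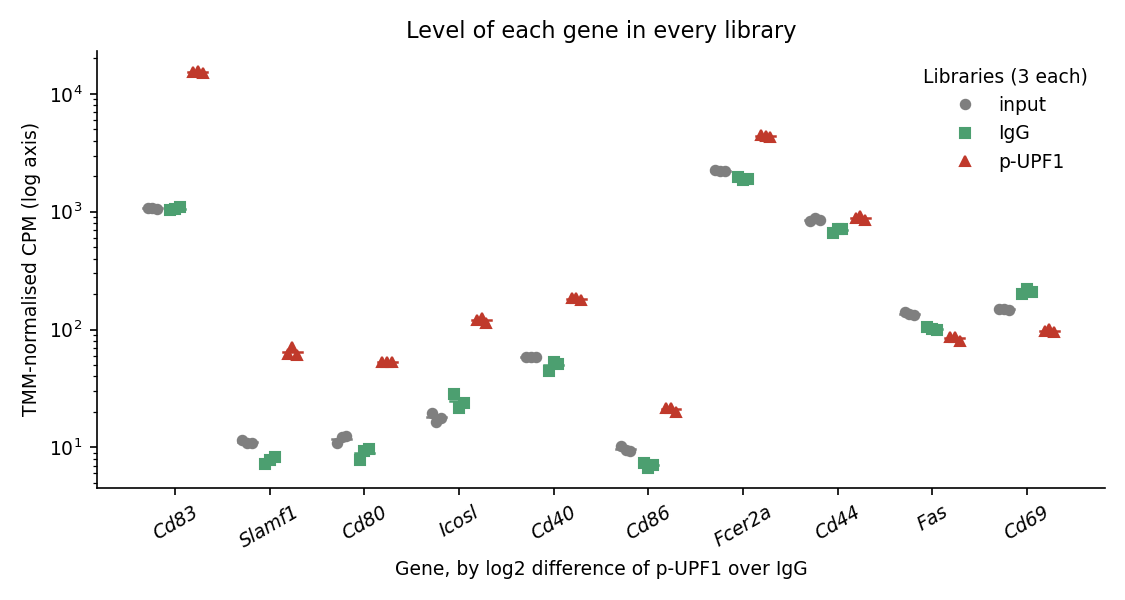
TMM-normalised CPM (log axis) of the 10 genes in each of the 9 libraries, with a short line at the mean of each group of 3, and genes ordered by their log2 fold change of p-UPF1 over IgG. The p-UPF1 points lie above all input and IgG points for 7 genes, Cd83 to Fcer2a, overlap the input points for Cd44, and lie below both for Fas and Cd69.

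In 7 genes the lowest p-UPF1 library was above the highest of the other 6, which held for 37.0% of all genes tested. In Fas and Cd69 all p-UPF1 libraries lay below the other 6, as for 37.6% of all genes. Separation of the groups was thus common in this experiment. A fold change here compares a gene with the typical RNA of a library, since immunoprecipitation gives no absolute scale.

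Cd83 (chr13:43785112-43803133, plus strand; GRCm38, the assembly that mm10 names, RefSeq annotation) had the largest change of the 10. It was counted 26580, 21151 and 20670 times in the input libraries and 19515, 20535 and 21196 times in the IgG libraries. In the p-UPF1 libraries it was counted 364219, 349232 and 329034 times. Its level was 1078, 1067 and 1053 CPM in input libraries, 1037, 1048 and 1087 after IgG and 15344, 15766 and 14914 after p-UPF1 precipitation. The backgrounds overlapped each other, and all p-UPF1 values were far above both. By CPM, Cd83 ranked 71, 76 and 76 among the tested genes of the input libraries and 58, 62 and 55 in the IgG libraries, but it was the most abundant RNA in each p-UPF1 library. The log2 fold change was 3.86 (SE 0.04) over IgG (adjusted P = 3.12e-19) and 3.85 (SE 0.04) over input (adjusted P = 8.08e-20). By log2 fold change it stood at place 24 of 13129 over IgG and at place 2 over input. IgG and input did not differ by the test, at a log2 fold change of -0.01 (SE 0.03) and an adjusted P of 0.791, although under other settings of the fit this small difference ran from -0.04 to 0.10 and passed the threshold in some.

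The B7 ligands were less abundant than Cd83 and rose by different amounts. Cd80 (chr16:38457430-38495958, plus strand), whose product binds CD28 and CTLA-4 on T cells, was at 10.9, 12.2 and 12.4 CPM in input libraries, 7.86, 9.29 and 9.59 after IgG and 53.4, 53.3 and 53.0 after p-UPF1 precipitation. Its p-UPF1 values were almost identical to each other and above all background values. Its log2 fold change was 2.58 (SE 0.08) over IgG (adjusted P = 1.84e-14) and 2.17 (SE 0.08) over input (adjusted P = 7.13e-14). Cd86 (chr16:36568956-36666158, minus strand), the other ligand of CD28 and CTLA-4, was at 10.2, 9.54 and 9.27 CPM in input libraries, 7.33, 6.68 and 7.03 after IgG and 21.8, 21.6 and 19.8 after p-UPF1 precipitation. Its groups did not overlap, and IgG was the lowest. Over IgG it rose by 1.59 (SE 0.09) log2 units (adjusted P = 7.61e-11), but at 1.12 (SE 0.09) over input (adjusted P = 3.34e-09) it did not reach the input criterion. Cd86 was counted few times, at 138, 131 and 137 counts in the IgG libraries.

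Icosl (chr10:78069368-78079525, plus strand) encodes the ligand of the T cell costimulator ICOS. It was at 19.5, 16.5 and 17.9 CPM in input libraries, 28.4, 21.7 and 23.9 after IgG and 122, 124 and 114 after p-UPF1 precipitation. The groups did not overlap, and here IgG lay above input. Its log2 fold change was 2.28 (SE 0.08) over IgG (adjusted P = 7.40e-14) and larger over input, with 2.73 (SE 0.08) and an adjusted P of 8.71e-15. Cd80 and Slamf1 stood the other way round, with IgG below input and the larger value over IgG.

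Of the TNF receptors, Cd40 rose and Fas fell. Cd40 (chr2:165055614-165071654, plus strand) encodes the receptor for CD40L. It was at 58.6, 58.4 and 58.4 CPM in input libraries, 44.9, 53.1 and 50.7 after IgG and 185, 184 and 179 after p-UPF1 precipitation, with no overlap between groups. The log2 fold change was 1.88 (SE 0.05) over IgG (adjusted P = 5.73e-15) and 1.64 (SE 0.05) over input (adjusted P = 1.95e-14), which left Cd40 past the criterion over IgG but short of that over input. Fas (chr19:34290647-34327775, plus strand), the death receptor for Fas ligand, was at 141, 135 and 133 CPM in input libraries, 105, 101 and 100.04 after IgG and 86.6, 86.5 and 80.2 after p-UPF1 precipitation. Input was highest and p-UPF1 lowest, without overlap. Its log2 fold change was -0.27 (SE 0.05) over IgG (adjusted P = 4.98e-05) and -0.69 (SE 0.05) over input (adjusted P = 3.78e-10).

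Slamf1 (chr1:171767131-171801184, plus strand), the self-ligand receptor CD150 of the SLAM family, had the second largest change over IgG. It was at 11.6, 10.8 and 10.95 CPM in input libraries, 7.17, 7.81 and 8.21 after IgG and 62.3, 70.9 and 60.9 after p-UPF1 precipitation. Library B was the highest of the p-UPF1 values, and all of these were well above the background. On the log2 scale it rose by 3.06 (SE 0.08) over IgG (adjusted P = 3.33e-15) and 2.54 (SE 0.08) over input (adjusted P = 1.20e-14). Its counts were low outside the precipitate, at 135, 153 and 160 in the IgG libraries against 1479, 1570 and 1343 in the p-UPF1 libraries.

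Fcer2a (chr8:3680280-3694174, minus strand) encodes CD23, the low-affinity IgE receptor, a classical target of IL-4 in B cells. It was already abundant before precipitation, at 2249, 2206 and 2233 CPM in input libraries and 1967, 1863 and 1885 after IgG, and rose to 4446, 4426 and 4337 after p-UPF1 precipitation. By CPM it ranked 16, 17 and 16 in the input libraries and 4 in each p-UPF1 library. On the log2 scale it rose by 1.21 (SE 0.03) over IgG (adjusted P = 3.98e-15) and 0.98 (SE 0.03) over input (adjusted P = 4.23e-14). The gene Trappc5 lies on the opposite strand and overlaps Fcer2a, and it was counted at most 3.92% as often as Fcer2a in any library.

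Cd44 (chr2:102811141-102901669, minus strand), the hyaluronan receptor of activated lymphocytes, was abundant and nearly level across the experiment. It was at 834, 877 and 856 CPM in input libraries, 659, 707 and 717 after IgG and 882, 920.0 and 854 after p-UPF1 precipitation. The p-UPF1 values overlapped input and lay above IgG. The log2 fold change was 0.35 (SE 0.04) over IgG (adjusted P = 8.63e-07) and 0.05 (SE 0.04) over input (adjusted P = 0.282), and the latter ranged from -0.02 to 0.18 across other settings of the fit and passed the threshold in some of them.

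Cd69 (chr6:129267324-129275375, minus strand), a C-type lectin that appears early after activation and holds lymphocytes in tissue, moved opposite to Cd83. It was at 148, 148 and 148 CPM in input libraries, 200.2, 219.6 and 208 after IgG and 97.5, 101 and 94.4 after p-UPF1 precipitation. IgG was highest and p-UPF1 lowest, without overlap. The log2 fold change was -1.10 (SE 0.04) over IgG (adjusted P = 4.99e-13) and -0.60 (SE 0.04) over input (adjusted P = 1.53e-09), so part of the contrast with IgG lay in the IgG libraries themselves.

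**Figure D2:**
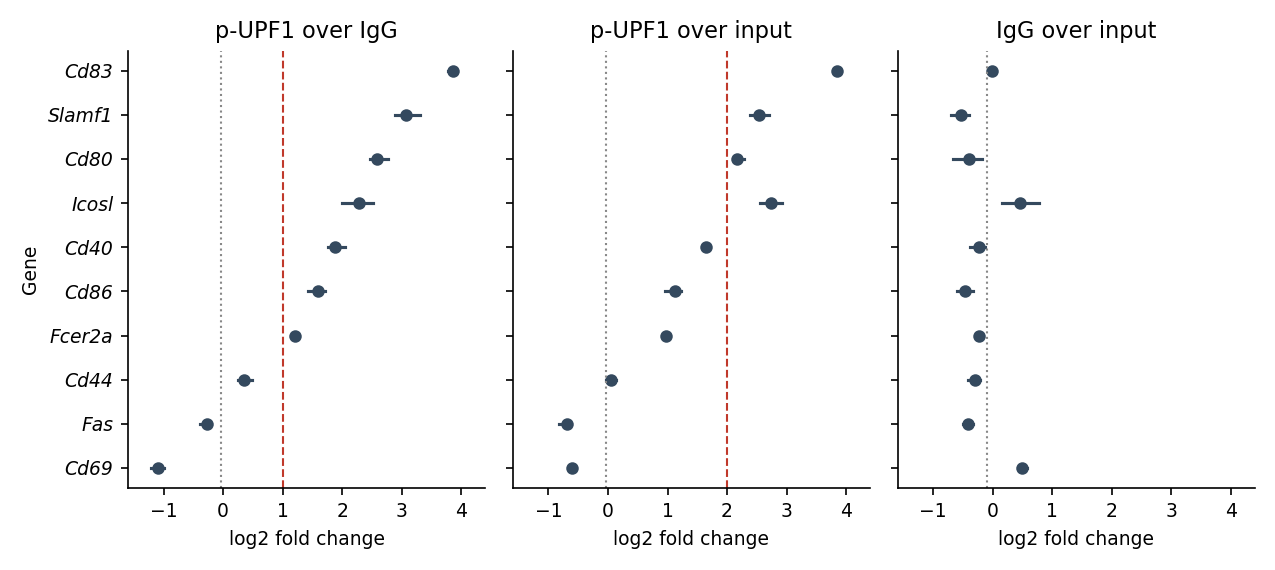
Log2 fold change of the 10 genes in the contrasts of p-UPF1 with IgG, p-UPF1 with input and IgG with input, with bars from the lowest to the highest of the 9 differences between single libraries. Dotted lines mark the median of all genes tested and dashed lines the criterion (1 over IgG, 2 over input). Cd83, Slamf1, Cd80 and Icosl lie beyond both dashed lines, and in the right panel the genes stay between -0.53 and 0.50.

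The order of the log2 fold changes over IgG was Cd83, Slamf1, Cd80, Icosl, Cd40, Cd86, Fcer2a, Cd44, Fas and Cd69. Neighbours were set apart when the ranges of their differences between single libraries did not overlap. By that measure only Cd80 and Icosl, and Icosl and Cd40, were not separated. The range of Cd83 was 3.78 to 3.93, and that of Slamf1, next in order, was 2.89 to 3.30. Over input the order was Cd83, Icosl, Slamf1, Cd80, Cd40, Cd86, Fcer2a, Cd44, Cd69 and Fas, with Icosl and Slamf1, Cd86 and Fcer2a, and Cd69 and Fas not separated. Among all genes tested, Slamf1 stood at the 99.1 percentile over IgG, Cd80 at 97.3, Icosl at 95.5, Cd40 at 91.7 and Cd86 at 88.1. Fcer2a stood at the 81.5 percentile, Cd44 at 61.4, Fas at 42.4 and Cd69 at 19.8.

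The IgG libraries differed from input by at most 0.53 log2 units in either direction for these genes. Cd69 and Icosl were higher in IgG, against 18.2% of all genes tested, and 7 of the 10 were lower, against 34.7%. Cd83 did not pass. Among the lower ones, Cd40 did not pass with library size alone (adjusted P = 0.0607), with an input library as TMM reference (adjusted P = 0.0566) or with only the compared groups in the fit (adjusted P = 0.0957), and in that last fit Cd80 did not either (adjusted P = 0.0507). The differences ran from -0.53 log2 units for Slamf1 (adjusted P = 2.97e-04) to 0.50 for Cd69 (adjusted P = 1.25e-07), and the median was -0.27, beside -0.10 over all genes tested. For Fas the difference between IgG and input, at -0.42, was larger in size than that between p-UPF1 and IgG, at -0.27, but the order turned with library size alone (-0.30 and -0.43), with upper-quartile factors (-0.35 and -0.41) and with an input library as TMM reference (-0.31 and -0.36). For the other 9 genes it was smaller, except for Cd44 with upper-quartile factors (-0.23 and 0.21).

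To set levels of different genes side by side, CPM was divided by the length of each gene's exons (RPKM). In input, Fcer2a was highest at 530.2 ± 5.12 RPKM and Cd83 next at 498 ± 5.81 (SD, n = 3). Cd44 followed at 149 ± 3.804, Cd69 at 60.1 ± 0.125 and Fas at 58.5 ± 1.93, of which the last pair overlapped between libraries. Cd40 was at 31.1 ± 0.038 RPKM, Icosl at 6.53 ± 0.54, Cd80 at 3.12 ± 0.217, Slamf1 at 3.10 ± 0.113 and Cd86 at 2.80 ± 0.135, with Cd80 and Slamf1 overlapping. In p-UPF1 libraries Cd83 stood alone at 7165 ± 199 RPKM, ahead of Fcer2a at 1047 ± 13.7. Icosl, at 43.6 ± 2.01, there passed both Cd69, at 39.6 ± 1.25, and Fas, at 36.3 ± 1.58, although it had been far below them in input, and no neighbours in that order overlapped. The genes took 0.447% of all counts of input libraries, 0.433% after IgG and 2.02% after p-UPF1 precipitation, and without Cd83 the remaining 9 took 0.342%, 0.321% and 0.563%.

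**Figure D3:**
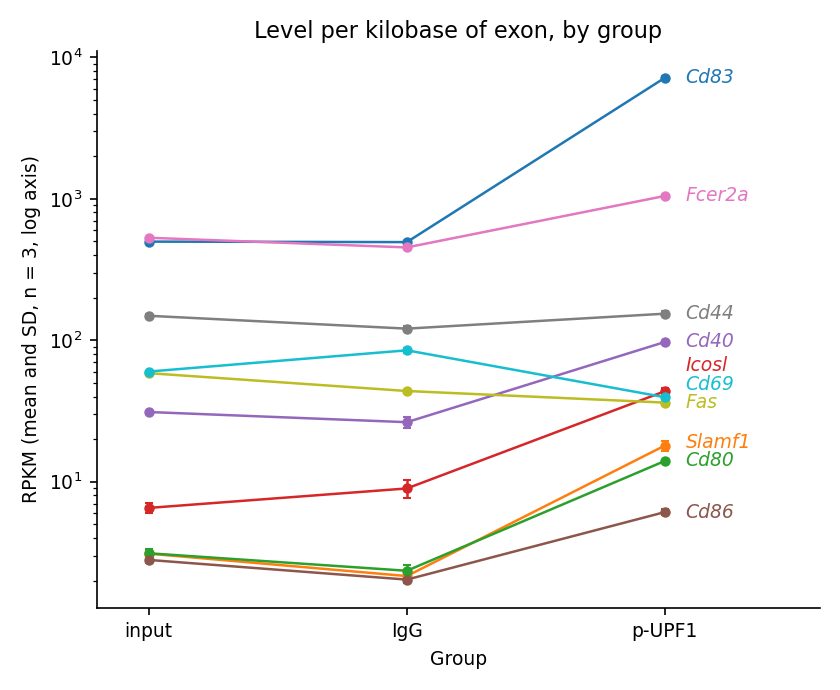
Mean RPKM (log axis) of each gene in input, IgG and p-UPF1 libraries, with SD over 3 libraries as bars and lines joining the means of a gene. Cd83 and Fcer2a start close together in input (498 and 530 RPKM) and part in p-UPF1 libraries (7165 and 1047 RPKM), and the line of Icosl crosses those of Cd69 and Fas.

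Profiles over the 9 libraries were compared after centring the log2 CPM of each gene, by the root mean square difference. Of 8991 genes with at least 10 CPM on average, the 5 nearest to Cd83 were Gins3, a replication helicase subunit (0.117 log2 units), Tab1, an activator of the kinase TAK1 (0.141), Pik3ip1, an inhibitor of PI3-kinase (0.165), Cnr2, a cannabinoid receptor (0.173), and Surf6, a nucleolar protein (0.176). Each had a log2 fold change of 3.45 to 3.64 over IgG and of 3.56 to 3.76 over input. Among the 10, none was as close to Cd83, and Slamf1 came nearest at 0.542. The closest pair was Cd86 and Fcer2a, at 0.161, followed by Cd80 and Slamf1, at 0.226, and Cd40 lay nearest to Cd86, at 0.235. Cd44 and Fas were nearest to each other at 0.331, and Cd69 was nearest to Fas at 0.416. These distances describe the same 9 libraries that gave the fold changes.

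The annotated mRNAs of the 10 genes were examined for features linked to UPF1, using the curated RefSeq transcript with the longest coding sequence. None had an exon junction more than 50 bases after its stop codon, a feature found in 34 of 11896 coding genes tested (0.286%). Only transcripts annotated as coding were examined, so this absence does not extend to transcripts annotated without a coding sequence. Cd80 and Cd86 had a junction after the stop codon, at 46 and 23 bases. An ATG upstream of the start codon was present in 1 of the 10, Cd80, which had 2, against 48.5% of coding genes. The median 3' UTR of the 10 was 1470.5 bases long, beside 1015 over all coding genes tested, and their median coding sequence was shorter, at 949.5 beside 1401 bases. Within the set, 3' UTR length was 1448 bases in Cd83, 1561 in Slamf1, 1519 in Cd80 and 1622 in Icosl. It was 1493 bases in Cd86, 1073 in Fcer2a and 741 in Cd40, which rose by less, and 937 in Cd69 and 446 in Fas, which fell. Cd44, nearly level in the experiment, had the longest at 2992. Since counts were summed per gene, transcripts of one gene could not be told apart, including 7 curated coding transcripts of Fcer2a, 6 of Cd44 and 4 of Cd40.

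The pentamer ATTTA, the core of AU-rich elements that bind decay factors, occurred on the sense strand of the 3' UTR in 7 of the 10 genes and in 66.6% of coding genes tested. Cd86, Fas and Fcer2a had none. The sites of Cd83 and Cd69, which lie at opposite ends of the order over IgG, are printed below from RefSeq transcripts (GRCm38), 5' to 3', with the pentamer in capitals and the position of its first base counted from the end of the stop codon.
Cd83, base 478: agtgggaaatATTTAgcaaataatt
Cd83, base 629: gggatgccacATTTAtttttttaat
Cd69, base 312: tagagttactATTTAttgccgaatg
Cd69, base 499: aactccatctATTTAcagaaacttt
Both genes thus carry 2 such sites.

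Genes of the same families, listed with earlier results known, were then compared. In the B7 and CD28 family, 10 of 14 listed genes were tested. Of these, 8 rose and 1 fell over IgG, with a median of 1.21, and 7 rose and 1 fell over input. Among all genes tested, 40.4% were higher and 42.2% lower over IgG, and 40.8% were higher and 42.6% lower over input. Pdcd1, the inhibitory receptor PD-1, went from 39.8 ± 0.921 CPM in input libraries and 36.1 ± 2.04 after IgG to 374 ± 18.6 after p-UPF1 precipitation (SD, n = 3), a log2 fold change of 3.37 (SE 0.05) over IgG and 3.23 (SE 0.05) over input. Vsir, the inhibitory molecule VISTA, rose by 2.27 (SE 0.09) over IgG and 2.50 (SE 0.09) over input, and these 2 of the 10 tested met both criteria, beside 6.25% of all genes. Btla, another inhibitory receptor, rose by 1.38 (SE 0.04) over IgG, the inhibitory ligand gene Cd200 by 0.97 (SE 0.07) and Cd274, which encodes PD-L1, by 0.35 (SE 0.07).

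In the TNF receptor and ligand superfamily, without Cd40 and Fas, 21 of 24 listed genes were tested, and 11 rose and 8 fell over IgG, with a median of 0.70, and the same numbers rose and fell over input, beside 40.4% of all genes tested higher and 42.2% lower over IgG, and 40.8% and 42.6% over input. The largest rises over IgG were those of Tnfrsf1b, encoding TNF receptor 2, at 2.74 (SE 0.06), of Tnfsf8, encoding CD30 ligand, at 2.66 (SE 0.06), and of its receptor gene Tnfrsf8 at 2.66 (SE 0.06). These and the less abundant Tnfsf14 and Fasl, 5 of the 21, met both criteria, beside 6.25% of all genes. Fasl did so narrowly, at 2.03 (SE 0.38) over input with at most 16 counts in an input library. Whether its call held under other scalings was not examined. Tnfsf9, encoding 4-1BB ligand, fell from 32.3 ± 2.25 CPM after IgG to 5.46 ± 0.254 after p-UPF1 precipitation (SD, n = 3), a log2 fold change of -2.56 (SE 0.09). Ltb, encoding lymphotoxin beta, was at -1.38 (SE 0.06) over IgG and Tnfrsf14, encoding the BTLA ligand HVEM, at -0.47 (SE 0.13).

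In the SLAM family, listed with its adaptor genes Sh2d1a and Sh2d1b1, 7 of 10 genes were tested beside Slamf1 itself. Of these, 4 rose and 2 fell over IgG, with a median of 0.45. Over input 3 rose and 4 fell. Both counts of rises include the adaptor gene Sh2d1b1, at 1.45 (SE 0.24) over IgG and 2.83 CPM on average. Cd84 rose by 2.04 (SE 0.07) and Slamf7 by 1.44 (SE 0.04), both less than Slamf1, and Slamf6 by 0.45 (SE 0.04), although over input Slamf6 fell, at -0.21 (SE 0.04) (adjusted P = 2.90e-04), a call lost with an IgG library as TMM reference, at -0.08 (adjusted P = 0.0944). Ly9 was at -0.04 (SE 0.04) and did not pass the test (adjusted P = 0.339), but passed it as lower under 3 other scalings, at -0.13 to -0.20. Cd48, encoding the ligand of CD244, fell, at -1.05 (SE 0.06). These counts stand beside the 40.4% of all genes higher and 42.2% lower over IgG, and 40.8% and 42.6% over input. None of these 7 met both criteria, which 6.25% of all genes did.

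Of 30 other activation and B cell surface genes, 11 rose and 18 fell over IgG, 7 rose and 21 fell over input, and the median over IgG was -0.75. Of all genes tested, 40.4% were higher and 42.2% lower over IgG, and 40.8% and 42.6% over input. Il4ra, the receptor chain for the IL-4 in the culture, went from 382 ± 1.89 CPM in input libraries and 326 ± 23.0 after IgG to 2146 ± 12.1 after p-UPF1 precipitation (SD, n = 3) and was the one gene of the 30 to meet both criteria (6.25% of all genes did), at 2.72 (SE 0.05) over IgG and 2.49 (SE 0.05) over input. Icam1, encoding an adhesion ligand of LFA-1, rose by 2.04 (SE 0.04) over IgG and Cr2, encoding complement receptor CD21, by 1.13 (SE 0.11). Cd52, encoding a small lipid-anchored glycoprotein, fell from 464 ± 12.1 CPM in input libraries and 159 ± 9.94 after IgG to 28.8 ± 3.23 after p-UPF1 precipitation, a log2 fold change of -2.47 (SE 0.07) over IgG. The tetraspanin gene Cd9 was at -1.97 (SE 0.08) and Bst2, encoding tetherin, at -1.94 (SE 0.10).

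Among 12 genes for shedding and turnover of these surface proteins, 6 rose and 5 fell over IgG, with a median of 0.09 whose sign turned with the scaling (-0.07 to 0.12). These counts were near the shares of all genes tested, of which 40.4% were higher and 42.2% lower. Marchf1, which encodes the MARCH1 ligase that CD83 opposes, rose from 26.6 ± 1.35 CPM in input libraries and 19.7 ± 2.25 after IgG to 129 ± 2.86 after p-UPF1 precipitation (SD, n = 3), a log2 fold change of 2.72 (SE 0.07) over IgG and 2.29 (SE 0.06) over input, and was the one gene of the 12 to meet both criteria, beside 6.25% of all genes. The related ligase gene Marchf8 rose by 1.60 (SE 0.06) over IgG. Psenen, encoding the small subunit of the gamma-secretase complex that cleaves the membrane stub of CD44, was at -2.96 (SE 0.16). The intramembrane protease gene Sppl2a was at -0.91 (SE 0.05) and the ubiquitin ligase gene Stub1 at -1.08 (SE 0.10). Apart from Ly9, the differences over IgG named for these lists passed the test with the reported scaling and with 5 others.

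**Figure D4:**
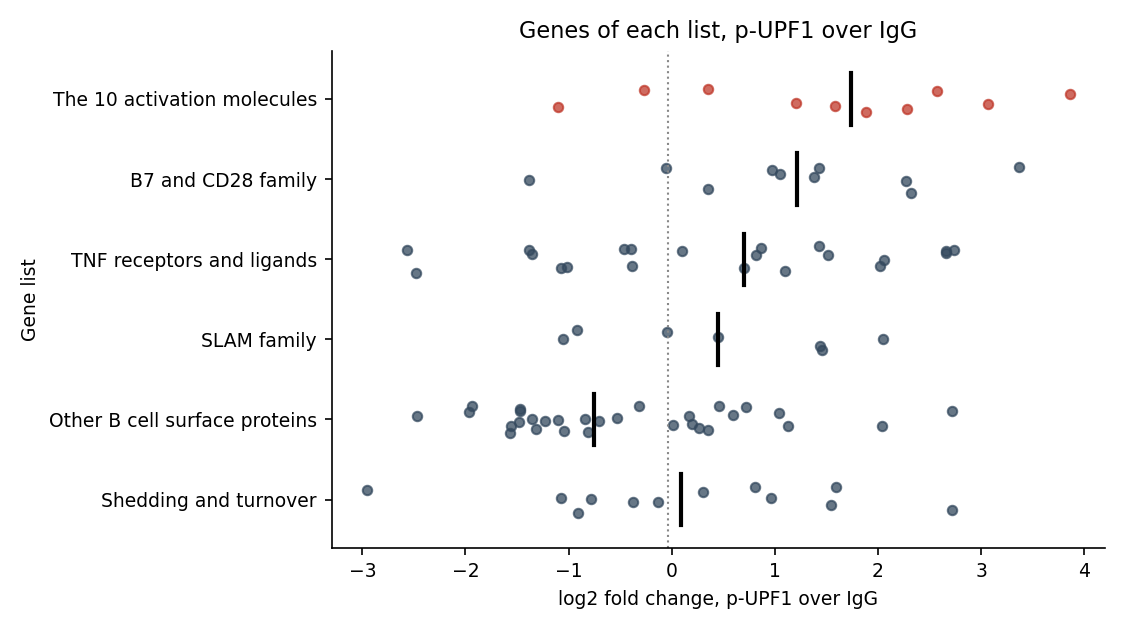
Log2 fold change of p-UPF1 over IgG for each tested gene of the 10 activation molecules (red) and of 5 lists of related genes (blue), with a black bar at the median of each list and a dotted line at the median of all genes tested (-0.03). The medians are 1.73 for the 10, 1.21 for the B7 and CD28 family, 0.70 for TNF receptors and ligands, 0.45 for the SLAM family with an adaptor gene, -0.75 for other B cell surface proteins and 0.09 for shedding and turnover.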

How the data were processed

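RIP-seq libraries of 3 input, 3 IgG and 3 p-UPF1 samples were analysed from the raw read counts per gene that the authors deposited, one column per library. Per the labels, libraries were made from polyA RNA with a directional kit, and the submitters' processing notes name cutadapt, HISAT2, featureCounts and mm10, without versions. The RNA-seq methods of the study describe unstranded reads, and no source used here gives settings for the RIP reads. Without strand, Cd80, Cd44, Icosl and Fcer2a could share reads with an annotated gene on the other strand, and Cd80 overlaps Ck-ps3 and Gm8590 on its own strand, so their counts are less certain. No molecular identifiers were counted, so counting error understates the true error.

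Genes were kept by edgeR's filterByExpr (minimum count 10, minimum total 15), leaving 13129 genes that hold 99.9% of all reads counted. TMM scaling was applied, which assumes that most genes do not change, and all 9 libraries were fitted with group as the only term. Contrasts were tested with edgeR 4.0.16 (quasi-likelihood test, two-sided, 6 residual degrees of freedom, R 4.3.3), with Benjamini-Hochberg adjustment over all genes tested. A prior count of 0.125 entered the log2 fold changes. The labels do not say that libraries came from separate cultures or animals. The study's methods call the points in its graphs independent biological replicates, without naming these libraries. P values measure the spread between these libraries, which may be technical. Columns carry letters and the labels numbers, so columns were tied to groups but not to single samples, and libraries were not paired. The fit was tested on simulated data in which 200 genes differed in the p-UPF1 libraries. It recovered 90.2% of genes changed by 1 log2 unit and 99.7% of those changed by 2. Of its calls, 4.88% were false, or 5.51% with the spread set per gene. Far fewer genes changed there than were called in these data, where 40.4% were higher and 42.2% lower over IgG. The scaling under such wide differences was therefore not tested.

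RPKM used exon lengths of the RefSeq annotation of GRCm38, which named 25275 of 27179 gene numbers. The genes and lists were chosen with earlier results of these data known. From each list, the 3 genes with the largest and the 3 with the smallest log2 fold change over IgG at a mean of at least 10 CPM were named, together with the 5 profiles nearest to Cd83. Some genes of these lists are not reported here by name. Other genes meeting both criteria (Tnfsf14 and Fasl) were named after their values were seen. Alternatives covered the scaling, the count filter, DESeq2 1.42.0, limma 3.58.1, the groups in the fit, each library left out and, chosen after seeing the data, the column letter as a block.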

Additional observations from a re-analysis of the deposited data

How the results depend on the processing

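The columns carry the letters A, B and C in each group, which match no replicate number of the labels, and whether a letter marks a shared lysate is not stated. Deviations from the group means correlated at -0.005 to 0.054 between libraries of one letter over 13129 genes (-0.056 to 0.022 between letters). Libraries lettered A and B were closest to their own letter in every contrast, but those lettered C were not. These small correlations do not settle whether a letter marks a shared lysate, and the letters were not taken as pairs. A fit with the letter as a replicate block, added after seeing the data, changed no call of the 10 genes, and 4 met both criteria there, with Cd83 at 3.86 over IgG. Across 23 alternatives for the counts of genes, Cd83, Cd80, Icosl and Slamf1 met both criteria in all 24 settings, the reported one included. Of 660 alternative log2 fold changes of the 10 genes, 644 had the reported sign and stayed on the reported side of the threshold. None over IgG changed, 4 over input did and 12 of IgG over input did. For Cd83, IgG over input turned from -0.01 to 0.10 with library size alone, 0.0578 with upper-quartile factors, 0.0184 with DESeq2 size factors, 0.0183 with DESeq2, 0.0949 with a TMM reference from input, 0.0882 with one from IgG, 0.0763 without a count filter and 0.0950 (adjusted P = 0.0173) with only the compared groups in the fit. For Cd44, p-UPF1 over input turned to -0.0173 with upper-quartile factors (adjusted P = 0.687) and passed the threshold at 0.18 with an IgG reference, 0.18 without a filter and 0.07 with only the compared groups. Library size alone moved the median of all genes over IgG from -0.03 to -0.19 (-0.17 with upper-quartile factors) and that of IgG over input from -0.10 to 0.01. A TMM reference from input moved the latter to 0.0046, and one from IgG moved the median of p-UPF1 over input from -0.03 to 0.10. The cause of these shifts was not tested. Genes lower in IgG than in input numbered 5 to 7, Cd40 and Cd80 being those lost, and higher ones 2 to 3, Cd83 being the one added. Leaving out any single library changed no call of the 10 genes. The minimum-fold test (glmTreat) applies to counts with a fold minimum and was not run for IgG over input. With the longest annotated transcript as length, Fas came to 68.1 RPKM in input, above Cd69. Depth limits Cd86, Slamf1 and Cd80 most, which had under 200 counts in each IgG library.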
